A study of Saccharomyces cerevisiae with 4 samples.

Results

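The 7 genes of trehalose metabolism in the budding yeast Saccharomyces cerevisiae were followed in cells that grew with the dye Congo red. They were taken by gene symbol from the platform's probe annotation, which assigned them 14 of the 11138 named spots, or 7 of 5539 named genes. TPS1, TPS2, TPS3 and TSL1 serve synthesis, and NTH1, NTH2 and ATH1 serve breakdown. Each of 4 two-channel arrays held RNA of treated cells beside RNA of untreated cells. Treated cells were strain BY4741, a haploid laboratory strain with deletions in 4 marker genes, exposed for 2 h at 24 °C to 30 µg/ml Congo red, which binds wall polysaccharides and disturbs wall assembly. Untreated cells were the other part of the same divided culture in rich medium, so both groups carry the same deletions. Arrays 1 and 3 had the treated RNA in channel 2, and arrays 2 and 4 had it in channel 1. Nothing in the labels tells whether the arrays come from different cultures. A p-value here therefore covers only array-to-array spread, which may be technical.

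Trehalose is a disaccharide of glucose that yeast stores and that protects proteins and membranes under stress. Synthesis runs from UDP-glucose and glucose phosphate to trehalose phosphate, and a phosphatase then frees trehalose. Trehalases split it back into glucose. Several of these genes are known targets of the general stress factors Msn2 and Msn4, and synthesis and breakdown are often induced side by side.

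All values are log2 ratios read as Congo red over untreated, with each array's median at 0, and 1 unit is a doubling. That direction is likely and not settled, because the labels name no ratio direction. The mean Pearson correlation over 5124 genes between arrays of opposite channel assignment was -0.036, and between arrays of the same assignment it was 0.21. The planned limit for settling the direction was a correlation beyond 0.3 on either side of 0 between opposite assignments, and it was not reached. The 8 marker genes of the cell wall stress route gave 30 array values, from 0.46 to 3.35, and all 30 were above 0 under either assignment. One of them, SLT2, had values on arrays 2 and 4 alone. The markers were chosen with earlier results of these data known, so their values are not an independent check of the direction. On this reading, 5 of 5489 tested genes passed the limma threshold (adjusted p under 0.05), all higher, which is 0.0911% of the genes. That count was 0 without any 1 of the arrays, with the arrays scaled to equal spread, with quantile normalization or with a channel term, and 11 without spot pairs more than 1 unit apart. Because only ratios were used, absolute transcript levels were not measured.

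TPS2 and NTH1 stood above 0 on every array, and the means of the other 5 lay between -0.08 and 0.13. None of the 7 passed the limma threshold over all genes, against the 0.0911% of genes that did. At an unadjusted limma p under 0.05, TPS2 and NTH1 were higher and 0 members were lower, where 5.37% of all genes were higher and 2.37% lower, 7.74% in all. TPS2, NTH1 and TPS3 were above 0 on all 4 arrays and 0 members were below 0 on all 4, against 9.54% and 8.65% of the 5124 genes with values on all arrays. The median of the 7 means was 0.11, and that of all tested genes was -0.01. The genes were chosen with earlier results of these data known, so these counts describe the 7 genes and test nothing about them as a set.

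**Figure D1:**
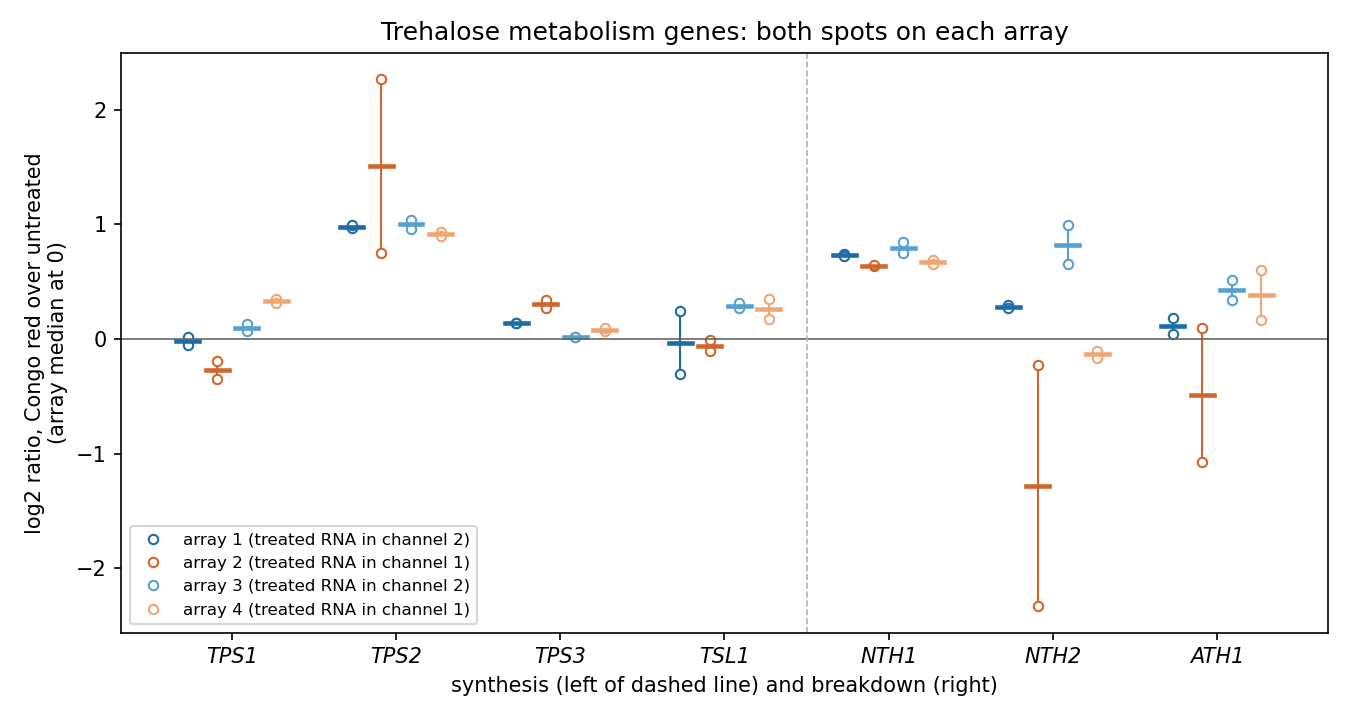
Log2 ratio of Congo red over untreated (vertical axis, array median at 0) for both spots of each trehalose gene (open circles) on arrays 1 to 4, with the mean of the spots as a short bar; blue marks arrays with treated RNA in channel 2 and orange those in channel 1. The spots of NTH1 lie between 0.63 and 0.84, while on array 2 the spots of TPS2, NTH2 and ATH1 are more than 1 unit apart.

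TPS2 (YDR074W), the phosphatase that frees trehalose from trehalose phosphate, had the highest mean of the 7. Its values were 0.98, 1.50, 1.00 and 0.92 on arrays 1 to 4. All 4 arrays were high, and array 2 stood above the other 3, which lay between 0.92 and 1.00. The mean was 1.10 ± 0.27 (SD, n = 4), which is 2.14-fold with a 95% interval of 1.60 to 2.87 (limma unadjusted p = 0.0011, adjusted p = 0.21). TPS2 exceeded 88.0%, 95.7%, 90.9% and 97.3% of genes on arrays 1 to 4. It was 29th of 5489 genes by limma p and 201st by mean. The height of array 2 came from 1 of its spots, at 2.26, while the other spot was at 0.75. Without array 2 the mean was 0.97 ± 0.04 (SD, n = 3).

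TPS1 (YBR126C), the synthase that makes trehalose phosphate and also restrains the entry of glucose into glycolysis, had a mean near 0. Its values were -0.02, -0.27, 0.10 and 0.33 on arrays 1 to 4, below 0 on 2 arrays and above 0 on the other 2. The mean was 0.04 ± 0.25 (SD, n = 4), with a 95% interval of 0.77 to 1.36-fold (limma adjusted p = 0.96). TPS3 (YMR261C) and TSL1 (YML100W) encode the 2 large regulatory subunits of the synthase complex, which are related in sequence. TPS3 was at 0.14, 0.30, 0.02 and 0.08, weakly above 0 throughout, with a mean of 0.13 ± 0.12 (SD, n = 4) and a 95% interval of 0.86 to 1.39-fold. TSL1 was at -0.03, -0.06, 0.29 and 0.26, close to 0 on arrays 1 and 2 and above it on arrays 3 and 4. On array 1 that value averages spots of opposite sign, at -0.31 and 0.25. Its mean was 0.11 ± 0.19 (SD, n = 4), with a 95% interval of 0.84 to 1.40-fold. The limma adjusted p was 0.79 for TPS3 and 0.83 for TSL1, and a 2-fold difference lay outside the intervals of all 3 genes.

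NTH1 (YDR001C) encodes the main neutral trehalase of the cytosol, an enzyme switched on by protein kinase A. Its values were 0.73, 0.64, 0.80 and 0.67 on arrays 1 to 4, so all arrays lay close together under either channel assignment. The mean was 0.71 ± 0.07 (SD, n = 4), or 1.63-fold with a 95% interval of 1.30 to 2.05 (limma unadjusted p = 0.0027, adjusted p = 0.29). Of the 5124 genes with values on all arrays, 1.13% had a smaller SD than NTH1. Its 8 spot values ran from 0.63 to 0.84. NTH1 was 51st of 5489 genes by limma p and 429th by mean, and 41 of 5123 other genes were at least 0.64 on every array. For TPS2 the same count, at its lowest value of 0.92, was 25.

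NTH2 (YBR001C), a second neutral trehalase related to NTH1, varied most. Its values were 0.28, -1.28, 0.82 and -0.13 on arrays 1 to 4. It was above 0 where treated RNA was in channel 2 and below 0 where it was in channel 1, with means of 0.55 on arrays 1 and 3 and -0.71 on arrays 2 and 4. That difference of 1.26 ± 0.51 (SE) did not pass the limma test of the channel term (unadjusted p = 0.075, adjusted p = 0.33), in which 0 of 5489 genes passed and 16.6% had an unadjusted p under 0.05. The mean over all arrays was -0.08 ± 0.89 (SD, n = 4), with a wide 95% interval of 0.49 to 1.83-fold (limma adjusted p = 0.96). On array 2 its spots were at -0.23 and -2.33. Without array 2 the mean was 0.32 ± 0.48 (SD, n = 3).

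ATH1 (YPR026W), the acid trehalase, which acts on trehalose outside the cytosol, was at 0.11, -0.49, 0.43 and 0.38 on arrays 1 to 4. Array 2 alone was below 0, and there the spots were at -1.07 and 0.10. The mean was 0.11 ± 0.42 (SD, n = 4), with a 95% interval of 0.75 to 1.56-fold (limma adjusted p = 0.89), and 0.31 ± 0.17 (SD, n = 3) without array 2.

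Agreement between the spots of a gene set how firmly each value can be read. On arrays 1, 3 and 4 the median gap between the spots of the 7 genes was 0.03, 0.08 and 0.04, below the 0.16, 0.16 and 0.15 of all genes printed as 2 spots. On array 2 it was 0.15, against 0.25 for all such genes, and 3 of the 7 were more than 1 unit apart, where 18.0% of all pairs were. TPS3 had the closest spots, at most 0.07 apart on any array. The widest gap among the 7 genes on array 1 was 0.56, for TSL1. Without signal strengths, no spot was set against its background, and whether NTH1 and NTH2, or TPS3 and TSL1, share signal through related sequence was not tested.

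In the order of means TPS2 was followed by NTH1, TPS3, TSL1, ATH1, TPS1 and NTH2. TPS2 lay above NTH1 on all 4 arrays, by 0.25, 0.87, 0.20 and 0.25. NTH1 lay above TPS3 on all 4, by 0.60, 0.33, 0.78 and 0.59. From TPS3 downward no neighbours in this order differed beyond their spread, with mean differences from 0.006 to 0.11 and SDs from 0.23 to 0.77.

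Within arrays, TPS2 exceeded its partners in the synthase complex each time. The differences were 1.06 ± 0.50 from TPS1, 0.97 ± 0.17 from TPS3 and 0.99 ± 0.42 from TSL1 (SD, n = 4). NTH1 exceeded ATH1 by 0.60 ± 0.38 (SD, n = 4) on 4 of 4 arrays and NTH2 by 0.79 ± 0.83 on 3 of 4. Without array 2, where spots of TPS2, NTH2 and ATH1 were discordant, these differences were smaller. Those of TPS2 were then 0.83 from TPS1, 0.89 from TPS3 and 0.79 from TSL1. The difference of NTH1 was then 0.41 from NTH2 and 0.42 from ATH1. Over all 4 arrays TPS3 and TSL1 differed by 0.02 ± 0.30, and NTH2 and ATH1 by -0.19 ± 0.56. With 4 arrays an exact two-sided sign-flip permutation test cannot go below p = 0.13, the value of the 3 TPS2 pairs and of NTH1 against ATH1. Over the 7 pairs their adjusted p from this exact test was 0.22, and no values on 4 arrays could have passed it.

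**Figure D2:**
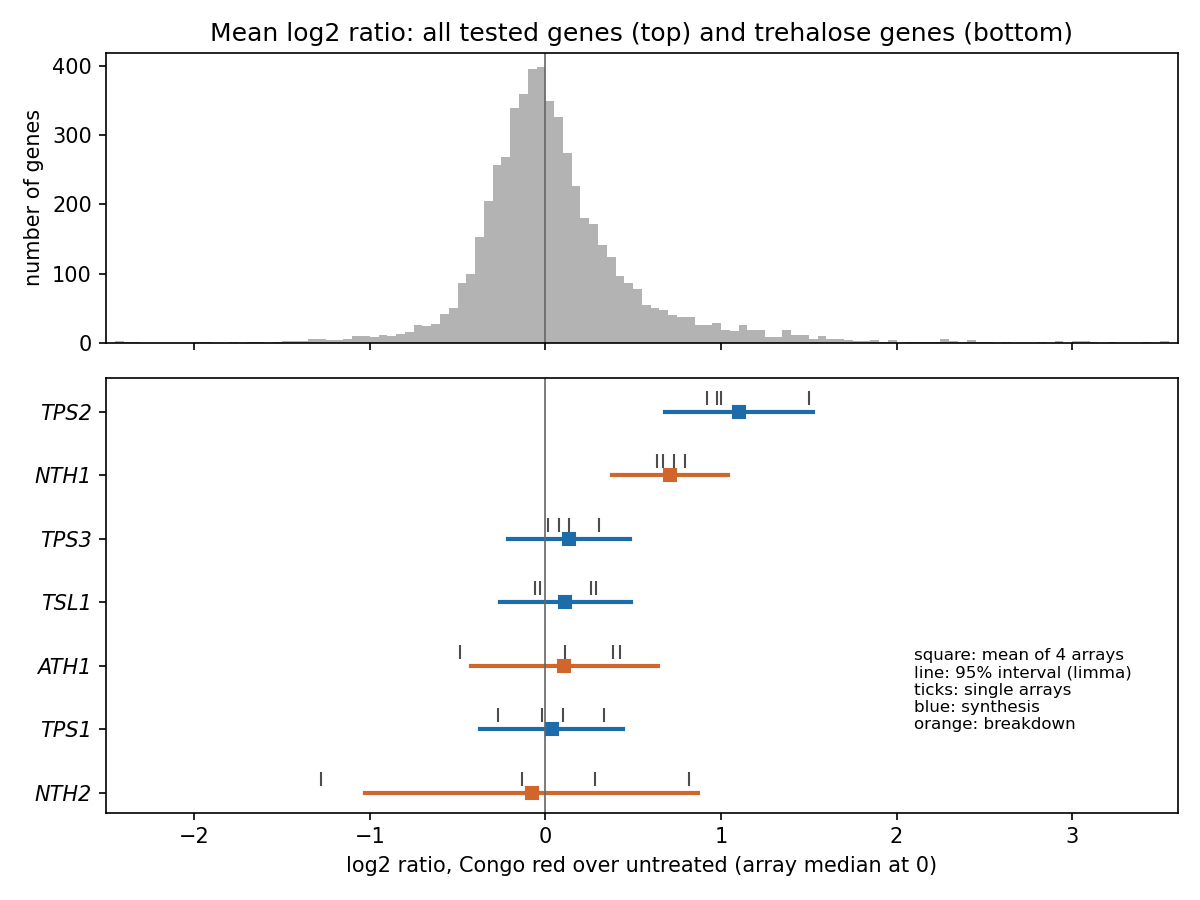
Top, number of genes (vertical axis) by mean log2 ratio of Congo red over untreated for the 5489 tested genes, with 4 beyond the axis; bottom, mean (square), limma 95% interval (line) and single arrays (ticks) of each trehalose gene on the same horizontal axis, synthesis in blue and breakdown in orange. The intervals of TPS2 and NTH1 lie above 0, and those of the other 5 span it.

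The genes whose array values lay nearest to those of TPS2 were found by the root mean square difference over the 4 arrays, among 5123 other genes. For TPS2 on array 2 the match used the mean of its spots at 0.75 and 2.26, so it rests partly on that discordant pair. The nearest genes are named here. They were AFB1, a secreted barrier factor of mating, at a difference of 0.21, RTS3 at 0.22, SCM3, a histone chaperone of centromeres, at 0.24, PPX1, an exopolyphosphatase, at 0.24, and RBK1, a ribokinase, at 0.27. Their means ran from 0.93 for RBK1 to 1.24 for AFB1. The same measure was applied to NTH1 after its values were seen. Its nearest genes were YEH1, a steryl ester hydrolase, at 0.08, NYV1, a vacuolar membrane fusion protein, at 0.10, and SMY1, a kinesin-related protein, also at 0.10. No other trehalose gene was among the 5 nearest to either, but the values given above already fixed this. The means of the other 5 lay between -0.08 and 0.13, and TPS2 lay above NTH1 by 0.25, 0.87, 0.20 and 0.25 on arrays 1 to 4.

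Like nearly all genes, those that supply the precursors did not pass the threshold. Of 6 tested genes of glucose phosphate and UDP-glucose supply, 0 passed the limma threshold and 0 had an unadjusted p under 0.05. Over all tested genes these shares were 0.0911% and 7.74%. A count of 0 in this short list and in those that follow therefore says little about their genes. Their median was 0.17, with 4 above 0 and 2 below. PGM2, the main phosphoglucomutase, was at 0.45, 1.01, 0.44 and -0.26 on arrays 1 to 4, with a mean of 0.41 ± 0.24 (SE). Its relative PGM1 was at 0.26 ± 0.15 (SE), and the hexokinase gene HXK1 at -0.36 ± 0.21 (SE). Glycogen genes, which draw on the same UDP-glucose, had a median of -0.11 over 8 tested members, with 3 above 0 and 5 below and 0 with an unadjusted limma p under 0.05. Of these the glycogen synthase gene GSY2 was at 0.91, -0.38, 0.82 and 0.88, high on all arrays but array 2, with a mean of 0.56 ± 0.27 (SE). The other synthase gene GSY1 was at -0.22 ± 0.19 (SE), and the glucoamylase gene SGA1 at -0.42 ± 0.24 (SE). Genes for the uptake and use of alpha-glucosides, the sugar class of maltose and trehalose, had a median of 0.05 over 8 members, none of them with an unadjusted limma p under 0.05. The regulator gene MAL33 was at 0.29 ± 0.20 (SE) and the transporter genes MPH3 and MAL11 were at -0.17 ± 0.18 and -0.46 ± 0.60 (SE). These genes have close copies in the genome, so their values are uncertain.

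Regulators of trehalase and of stress transcription were likewise below the threshold. The list of RAS and protein kinase A genes holds parts of the route that switches on Nth1 and genes that restrain it. Of its 11 tested members 0 passed and 0 had an unadjusted limma p under 0.05, where 0.0911% and 7.74% of all genes did. The median was 0.14 over both kinds. The phosphodiesterase genes PDE1 and PDE2, whose products break down cyclic AMP, were at 0.46 ± 0.18 and 0.37 ± 0.16 (SE). Their limma unadjusted p was 0.0501 and 0.071, so PDE1 missed 0.05 narrowly. Both were above 0 on every array, as were 9.54% of the genes with values on all arrays. IRA2, which inactivates RAS, was at -0.46 ± 0.18 (SE, limma unadjusted p = 0.055). It was below 0 on every array, as were 8.65% of the genes with values on all arrays. These 3 genes were named for the smallest p in the list, a choice that favours equal signs over the arrays, so they do not stand for the whole route. Among 13 other regulators the median was -0.18, and 0 passed at either level, against the same shares of all genes. DCS2, a relative of the Nth1 inhibitor gene DCS1, was at 1.28, 0.39, 0.41 and 0.22, highest on array 1. Its mean was 0.58 ± 0.22 (SE), and it missed 0.05 narrowly (limma unadjusted p = 0.0501, adjusted p = 0.64). DCS1 itself was at 0.20 ± 0.15 (SE), and RIM15, a kinase of the stress and starvation response, at -0.26 ± 0.18 (SE).

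Targets of Msn2 and Msn4 other than the trehalose genes, which include GSY2, HXK1 and PGM2 of the lists above, lay on both sides of 0. Of 25 tested members 13 were above 0 and 12 below, with a median of 0.05, and 0 passed the limma threshold. At an unadjusted limma p under 0.05, 1 was higher and 2 were lower, where 5.37% of all genes were higher and 2.37% lower. The higher was HSP12, a small membrane-bound stress protein, at 0.84, 1.39, 1.27 and 1.67 on arrays 1 to 4, with a mean of 1.29 ± 0.18 (SE, limma adjusted p = 0.18). The lower ones were the small chaperone gene HSP26 at -0.81 ± 0.17 (SE, limma adjusted p = 0.36) and YGP1, a secreted glycoprotein of the stress response, at -0.61 ± 0.17 (SE, limma adjusted p = 0.56). HSP26 and YGP1 were below 0 on all 4 arrays, where TPS2, NTH1 and HSP12 were above it.

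**Figure D3:**
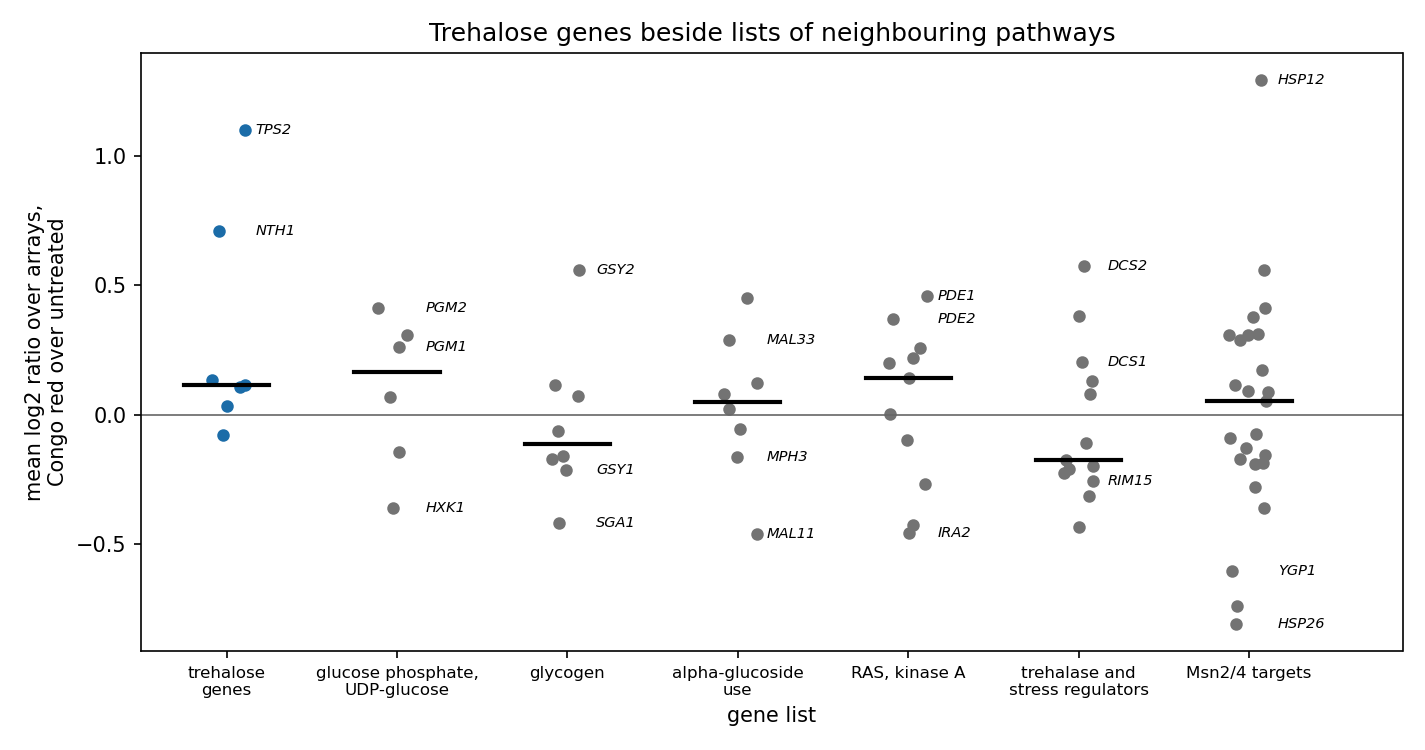
Mean log2 ratio of Congo red over untreated (vertical axis) for each tested gene of the trehalose set (blue) and of 6 related gene lists (grey) along the horizontal axis, with list medians as bars and named genes labelled. TPS2 is at 1.10, NTH1 at 0.71 and HSP12 at 1.29, on the likely direction of the ratios.

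The reading of the direction bears on each of these values. If the deposited ratios ran as channel 2 over channel 1, the sign of arrays 2 and 4 would turn. The wall stress markers would then be above 0 on arrays 1 and 3 and below 0 on arrays 2 and 4. The mean of TPS2 would be -0.11 and that of NTH1 0.06. NTH2 would then have the largest mean of the 7, at 0.63 ± 0.24 (SE, limma adjusted p = 0.40). With channel 1 over channel 2, arrays 1 and 3 would turn instead, and each of these means would have the opposite sign.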

How the data were processed

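The deposited table holds log2 ratios per spot, read as such from the values; how the authors corrected, normalized and oriented them is not given in the sources used here. Array medians of the deposited values were 0.31, 0.02, -0.46 and 0.37, and 1.67% to 9.30% of the 12800 spots were blank, which with 4 arrays limits the precision. Spots were named by the platform's gene annotation, and all 14 spots of the trehalose genes matched RefSeq R64 by gene number with the same symbol. No build is named for the array, so coordinates are not printed.

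Each array was centred on its median, spots of a gene were averaged, and limma 3.58.1 (R 4.3.3) was run on genes valued on 3 or more arrays (lmFit and eBayes, mean alone, two-sided, Benjamini-Hochberg over all genes, threshold 0.05). The fit was tested on simulated data with independent noise and no channel effect, so that test does not cover such an effect. SE denotes the moderated standard error of that fit. The trehalose genes, gene lists and tests were chosen with earlier results of these data known. Named were the 7 genes, the 3 genes of each list with the smallest p, and the 5 nearest to the trehalose gene with the largest mean; the neighbours of NTH1 were added later, and 3 of those 5 are given. Alternatives were other centrings and scalings, a channel term, other filters on missing or discordant spots, single spots, robust eBayes, turned signs and each array left out.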

Additional observations from a re-analysis of the deposited data

Results flagged for a closer look

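On array 2 TPS2 was at 1.50, far from its other 3 arrays relative to its range, and there its spots were 1.52 apart. Other genes named in the text with 1 array far from the rest were HXK1 at -0.99 and GSY2 at -0.38 on array 2, MAL11 at 1.76 on array 1, CWP1 at 3.06 on array 4 and PPX1 at 0.99 on array 4. CWP1 is a wall mannoprotein gene among the markers used to read the direction. These are 6 of 42 genes examined in this way, and chance alone flags about 1 gene in 20. The causes were not tested.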

How the results depend on the processing

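In all 15 alternatives for the whole gene table, 0 of the 7 trehalose genes passed the limma threshold. The smallest limma adjusted p among them ran from 0.17 to 0.81. The list genes also gave 0 each time. In the fit of single spots no trehalose spot passed, but 0 of all 12242 tested spots did, so that fit sets these genes apart from no others. The count of all genes that passed was 5; it was 0 with quantile normalization, with arrays brought to one spread, with the channel term, with turned signs, with centring in runs of 400 spots (added after the data were seen) and without any 1 array (0 to 0), and 11 without spot pairs more than 1 apart. TPS2 ran from 0.97 to 1.16 and NTH1 from 0.68 to 0.73 when each array was left out. Without discordant spot pairs, which drops array 2 for TPS2, NTH2 and ATH1, TPS2 was at 0.97 and NTH2 turned to 0.32.

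With turned signs TPS2 was at -0.11, TPS3 at -0.057 and NTH2 at 0.63, and the differences were -0.11 for TPS2 minus TPS1, -0.054 for TPS2 minus TPS3, -0.12 for TPS2 minus TSL1, -0.071 for TPS3 minus TSL1, -0.57 for NTH1 minus NTH2, -0.10 for NTH1 minus ATH1 and 0.47 for NTH2 minus ATH1. TPS3 minus TSL1 also turned with scaling (-0.013), quantile normalization (-0.014) and centring in runs (-0.079), and ran from -0.094 to 0.12 over the left-out arrays. NTH2 minus ATH1 turned to 0.016 without discordant pairs and ran from -0.38 to 0.016 over the left-out arrays. There NTH2 ran from -0.38 to 0.32 and TPS1 from -0.064 to 0.14. The first spot alone gave 0.15 for NTH2 and -0.021 for ATH1. The causes were not tested. Treated and untreated RNA were paired within each array, so the fit of the ratios against 0 already used that pairing. With 1 group of arrays no further pairing was made.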
